A study of Mus musculus with 24 samples.

Results

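The genes described here are the core of antigen presentation by the major histocompatibility complex (MHC) in the mouse left ventricle: 5 class I genes (H2-K1, H2-D1, B2m, Tap1 and Tapbp) and 5 class II genes (H2-Aa, H2-Ab1, H2-Eb1, Cd74 and Ciita). They were chosen by name, and all 10 were found among the 24015 genes of the deposited read count table. All 10 were also among the 13816 genes that passed the filter on low counts and were tested. The hearts had been subjected to transverse aortic constriction (TAC), a banding of the aorta that loads the left ventricle with pressure, or to a sham operation, and were collected 2, 4, 7 or 21 days later. Each operation and day is represented by 3 RNA-seq libraries, 24 in all: TAC at days 2, 4, 7 and 21, and sham at days 2, 4, 7 and 21. Neither strain, genotype, sex nor age is given in the labels used here, so no allele of the polymorphic H2 genes can be named. Whether the 3 libraries of a group come from separate animals is not stated either. Each p-value sets a difference between groups against the spread between replicate libraries, estimated over all 24. That spread need not be one between animals.

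MHC class I molecules display peptides from inside the cell to CD8+ T cells. H2-K1 and H2-D1 encode their heavy chains and B2m the light chain, Tap1 encodes one subunit of the transporter that carries peptides into the endoplasmic reticulum, and Tapbp encodes tapasin, which holds the empty class I molecule at that transporter. MHC class II molecules display peptides from endocytosed material to CD4+ T cells. H2-Aa encodes a class II alpha chain, H2-Ab1 and H2-Eb1 encode beta chains, Cd74 encodes the invariant chain that guides class II molecules through the cell, and Ciita encodes the transactivator that class II genes need for transcription. Class I is made by nearly all nucleated cells, whereas class II is largely restricted to macrophages, dendritic cells and B cells. In the heart these include resident and recruited macrophages. In whole ventricle RNA, fewer cells of a type and less RNA per cell cannot be told apart.

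Class I and class II promoters share a short module just upstream of the gene, made of X1, X2 and Y boxes, which RFX, CREB-type and NF-Y factors bind and to which Ciita, or its class I counterpart Nlrc5, is recruited. The 180 bases before the transcription start are shown for 5 genes, the heavy chains and B2m of class I and an alpha and a beta chain of class II, because the module lies there. They were taken from RefSeq on the GRCm38.p6 assembly, in which 7 of the 10 genes had an entry. Tap1 and Tapbp had one too, and H2-Ab1, Cd74 and Ciita had none. Capitals mark matches to the motifs described after the sequences. H2-K1 (chr17:34000348-34000527, minus strand, the more upstream of 2 RefSeq starts), H2-D1 (chr17:35262914-35263093, plus strand), B2m (chr2:122147507-122147686, plus strand), H2-Aa (chr17:34287824-34288003, minus strand) and H2-Eb1 (chr17:34305687-34305866, plus strand) read as follows, 5′ to 3′ on the strand of the gene.
H2-K1: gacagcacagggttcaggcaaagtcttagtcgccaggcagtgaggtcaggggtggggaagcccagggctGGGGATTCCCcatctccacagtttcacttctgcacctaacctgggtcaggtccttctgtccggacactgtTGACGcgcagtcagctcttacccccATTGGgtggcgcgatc
H2-D1: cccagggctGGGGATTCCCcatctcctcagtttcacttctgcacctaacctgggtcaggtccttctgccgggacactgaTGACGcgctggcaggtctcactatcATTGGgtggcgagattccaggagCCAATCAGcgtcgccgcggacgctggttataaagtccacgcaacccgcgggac
B2m: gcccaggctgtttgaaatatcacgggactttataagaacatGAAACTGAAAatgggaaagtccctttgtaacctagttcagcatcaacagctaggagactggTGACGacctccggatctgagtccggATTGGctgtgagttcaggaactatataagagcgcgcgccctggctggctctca
H2-Aa: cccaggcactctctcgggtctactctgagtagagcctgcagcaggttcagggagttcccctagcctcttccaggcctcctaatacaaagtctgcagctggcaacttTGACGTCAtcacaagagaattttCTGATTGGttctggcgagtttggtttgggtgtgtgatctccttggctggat
H2-Eb1: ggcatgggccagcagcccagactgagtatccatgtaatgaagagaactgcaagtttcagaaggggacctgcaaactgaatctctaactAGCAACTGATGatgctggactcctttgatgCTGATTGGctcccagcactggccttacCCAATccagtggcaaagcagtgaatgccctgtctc

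The motifs were searched on both strands in the 250 bases before each start. The core of the Y box, ATTGG, was found in all 5 of these promoters and in 33.8% of the 32851 windows of RefSeq starts. Its longer form CTGATTGG, which contains ATTGG, was found upstream of H2-D1, H2-Aa and H2-Eb1 and in 3.83% of windows. The core of the X2 box, TGACG, was found upstream of H2-K1, H2-D1, B2m and H2-Aa and in 17.8% of windows. In H2-Aa it stood on both strands, the copies overlapping. Of the promoters not shown, that of Tap1 held CTGATTGG 222 to 215 bases and TGACG 86 to 82 bases before its start. That of Tapbp held ATTGG, 248 to 244 and 165 to 161 bases before its start. An X1 box, the first run of capitals in its sequence, was found upstream of H2-Eb1, 92 to 82 bases before the start, and in 0.259% of windows. H2-K1 and H2-D1 carried a kappa B motif, the first run of capitals in their sequences, held by 0.152% of windows, at 111 to 102 and at 171 to 162 bases before their starts. B2m carried an interferon motif, likewise the first run, held by 2.98% of windows, at 139 to 130 bases before its start. Only matches to a fixed pattern of each motif were sought. Any looser interferon motif upstream of H2-K1, H2-D1 or the other genes would have been missed and left in lower case. The starts of Tap1 and Psmb9, a subunit of the immunoproteasome, lay 226 bases apart on opposite strands, so both genes read out of 1 shared stretch. Of the 10 genes, 7 lie on chromosome 17, where the mouse MHC is. These matches describe the letters of the reference and were not set against binding data.

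Library totals ran between 10689684 and 17563210 reads. Unless another unit is named, levels are counts per 1000000 reads (CPM) scaled by the trimmed mean of M values (TMM), and each trio of values is in the order of replicates 1, 2 and 3. The read counts of replicate libraries differed by more than sampling noise, with a chi-square per degree of freedom between 3.56 and 60.6. Myl7, the atrial myosin light chain, exceeded 30 CPM in 4 libraries (replicate 1 of TAC at day 7, replicates 2 and 3 of sham at day 2 and replicate 2 of sham at day 21). Cardiomyocyte markers dominated every library, as their summed level of 127409 to 204106 CPM shows. The summed level of 14 T cell and NK cell markers was low, between 1.99 and 7.09 CPM over all libraries. At day 4 it was 4.52 to 6.71 CPM in TAC hearts and 3.43 to 4.18 CPM in sham hearts. At day 7 it was 5.29 to 7.09 CPM in TAC hearts and 3.02 to 3.63 CPM in sham hearts. At days 2 and 21 the groups overlapped. Prf1 was at 0 in TAC hearts at day 4 and Gzmb at 0 in sham hearts at days 7 and 21.

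Compared per length in the authors' RPKM values, the 10 genes differed widely in level. B2m was highest in every library, with a median of 486 RPKM and a range of 309.8 to 797. Cd74 followed at a median of 91.0 RPKM, and H2-K1 at 79.1 RPKM; Cd74 was the higher of this pair in 22 of 24 libraries. H2-D1 had a median of 51.3 RPKM, H2-Aa 27.5 RPKM, H2-Ab1 20.7 RPKM and Tapbp 19.8 RPKM. The order of H2-Ab1 and Tapbp was not distinct, H2-Ab1 being higher in 14 of 24 libraries. H2-Eb1 (10.4 RPKM), Tap1 (3.80 RPKM) and Ciita (0.603 RPKM) closed the order. Ciita, the regulator, rested on 15 to 96 reads a library, whereas B2m rested on 3594 to 10639.

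H2-K1 was above H2-D1 in both tables, but the size of the gap depends on the table. One unscaled CPM in the count table corresponded to a median of 2.59 RPKM for H2-D1 and 0.710 RPKM for H2-K1. Close relatives were treated differently by the tables too: H2-Q7 and H2-Q8 had a median count of 0, yet medians of 6.36 and 8.12 RPKM. In the GENCODE M21 transcripts, 14.3% of the 50-base words of H2-D1 and 8.79% of those of H2-K1 occur in another gene, against 0 for B2m, H2-Aa, H2-Ab1, H2-Eb1, Cd74 and Ciita. How reads shared by such genes were assigned is not stated in the sources used here, so the levels of the heavy chains are uncertain, and so is the split between them.

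At day 7 after TAC, some genes of each class rose. B2m and H2-K1 of class I and H2-Aa and H2-Eb1 of class II rose, by 0.58 to 0.81 on the log2 scale, so 4 of 10 genes passed an adjusted p of 0.05 in the edgeR quasi-likelihood test; 23.2% of all tested genes passed at that day. The other 6 were also above 0, between 0.20 for Tapbp and 1.04 for Ciita, without passing. At days 2, 4 and 21 none of the 10 passed, against 4.58%, 24.6% and 1.09% of all tested genes. At an unadjusted p under 0.05 the counts at these days were 0, 0 and 2 (B2m and H2-Ab1 at day 21), and DESeq2 and limma voom called 0 at each. The share of all tested genes at that unadjusted threshold is not given here. The median log2 fold change at days 2, 4, 7 and 21 was -0.20, 0.05, 0.55 and 0.36 for class I and 0.03, 0.01, 0.81 and 0.44 for class II. Over all tested genes it stayed between -0.01 and 0.01. The plot of fold changes by day shows these values.

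**Figure D1:**
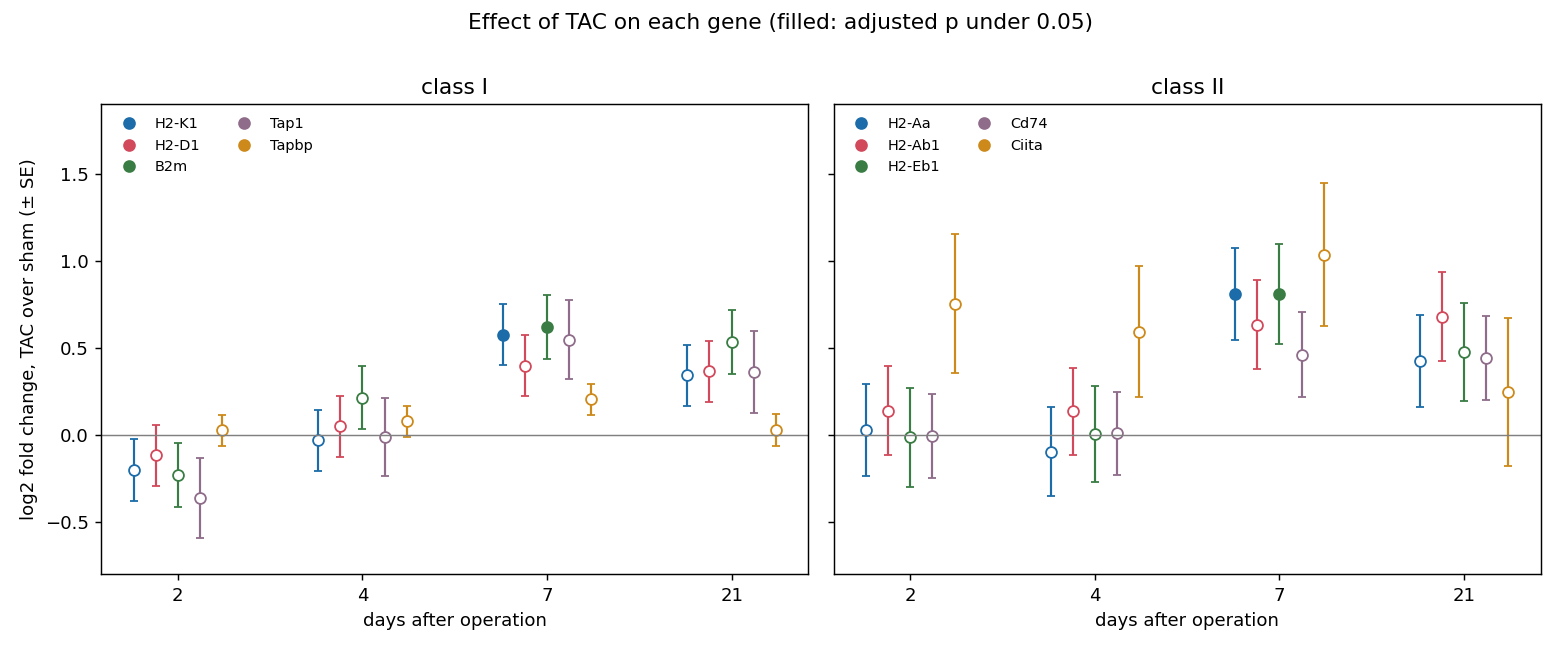
Log2 fold change of TAC over sham (vertical axis) at 2, 4, 7 and 21 days (horizontal axis) for the class I genes (left) and class II genes (right); points are estimates, bars are standard errors and filled points have an adjusted p under 0.05. All 10 points lie above 0 at days 7 and 21, and only B2m, H2-K1, H2-Aa and H2-Eb1 at day 7 are filled.

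B2m encodes the light chain of class I. At day 7 it stood at 592, 509 and 673 CPM in TAC hearts, against 365, 460.1 and 329.8 CPM in sham hearts, so all TAC libraries lay above all sham libraries. Its log2 fold change was 0.62 ± 0.18 (SE; edgeR adjusted p = 0.0205). At day 21 it stood at 484, 479.7 and 555 CPM in TAC hearts, against 358, 338 and 353 CPM in sham hearts. These groups were again apart, with a log2 fold change of 0.53 ± 0.18 that did not pass (edgeR adjusted p = 0.141). Day 2 gave 412, 302 and 267 CPM in TAC hearts and 448, 342 and 361 CPM in sham hearts. Day 4 gave 521, 632 and 536 CPM in TAC hearts and 368, 653 and 434 CPM in sham hearts. At both early days the groups overlapped, and at day 4 replicate 2 was the highest library of each group.

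H2-K1, a heavy chain gene, followed B2m. At day 7 it had 157, 137 and 169 CPM in TAC hearts, against 98.8, 124 and 88.6 CPM in sham hearts. The groups did not overlap, and the log2 fold change was 0.58 ± 0.18 (edgeR adjusted p = 0.0239). At day 21 the levels were 117, 137 and 127 CPM in TAC hearts and 95.1, 107 and 98.0 CPM in sham hearts, apart again, with 0.34 ± 0.18 (edgeR adjusted p = 0.322). At day 2 H2-K1 had 94.2, 75.3 and 66.6 CPM in TAC hearts, against 108, 81.4 and 82.0 CPM in sham hearts. At day 4 it had 116, 157 and 116 CPM in TAC hearts, against 107, 176 and 114 CPM in sham hearts. The groups overlapped at both, and the estimates of -0.20 ± 0.18 and -0.03 ± 0.17 did not pass.

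The second heavy chain gene, H2-D1, had 28.1, 22.1 and 28.0 CPM in TAC hearts at day 7, against 18.0, 21.7 and 19.8 CPM in sham hearts. All TAC libraries were above all sham libraries, although TAC replicate 2 lay close to sham replicate 2, and the estimate of 0.40 ± 0.18 did not pass (edgeR adjusted p = 0.103). At day 21 H2-D1 had 25.8, 23.9 and 25.1 CPM in TAC hearts, against 18.5, 21.3 and 18.4 CPM in sham hearts. The groups were apart there as well, with 0.37 ± 0.18 (edgeR adjusted p = 0.292). At days 2 and 4 the groups overlapped, with -0.12 ± 0.18 and 0.05 ± 0.18.

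The peptide transporter subunit gene Tap1 was the only one of the 10 with every TAC library below every sham library at any day. That was day 2, with 9.25, 6.82 and 7.92 CPM in TAC hearts and 11.7, 9.26 and 9.82 CPM in sham hearts, where 11.2% of all tested genes were separated downwards. TAC replicate 1 lay just below sham replicate 2, and the estimate of -0.36 ± 0.23 did not pass (edgeR adjusted p = 0.401). At day 7 Tap1 had 15.8, 14.0 and 16.0 CPM in TAC hearts, against 9.63, 11.3 and 10.4 CPM in sham hearts. Here it was separated upwards, with 0.55 ± 0.23 (edgeR adjusted p = 0.0831). At day 21 it had 11.0, 11.4 and 9.50 CPM in TAC hearts and 7.43, 9.31 and 8.18 CPM in sham hearts (0.36 ± 0.24, not passing). At day 4 it had 9.22, 21.6 and 11.7 CPM in TAC hearts and 11.6, 18.6 and 12.4 CPM in sham hearts, replicate 2 being the highest of each group.

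Tapbp, the tapasin gene, was the member that varied least. Its levels ran between 44.7 and 70.3 CPM over the 24 libraries. At day 7 it had 70.3, 56.9 and 60.6 CPM in TAC hearts, against 55.8, 56.5 and 50.8 CPM in sham hearts. The groups were apart by a narrow margin, TAC replicate 2 against sham replicate 2, and the log2 fold change was 0.20 ± 0.09 (edgeR adjusted p = 0.101). At days 2, 4 and 21 the groups overlapped, with estimates between 0.03 and 0.08.

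Among class II, the alpha chain gene H2-Aa had 47.2, 17.8 and 27.3 CPM in TAC hearts at day 7, against 15.3, 21.6 and 16.0 CPM in sham hearts. TAC replicate 1 was far above the others, and TAC replicate 2 lay below the highest sham library. The log2 fold change was 0.81 ± 0.27 (edgeR adjusted p = 0.0330). At day 21 H2-Aa had 26.5, 24.8 and 36.0 CPM in TAC hearts, against 18.6, 23.4 and 23.2 CPM in sham hearts. At day 4 it had 30.8, 28.4 and 32.7 CPM in TAC hearts, against 25.8, 47.0 and 25.4 CPM in sham hearts. At day 2 it had 19.0, 17.7 and 22.8 CPM in TAC hearts, against 18.3, 19.2 and 20.8 CPM in sham hearts. The groups were apart at day 21 alone, where the estimate of 0.43 ± 0.26 did not pass; at day 4 sham replicate 2 was the highest of the 6 libraries.

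The beta chain gene H2-Eb1 had the same order of TAC libraries at day 7, with 32.2, 13.8 and 20.1 CPM in TAC hearts and 11.2, 15.5 and 11.2 CPM in sham hearts. It rose by 0.81 ± 0.29 on the log2 scale (edgeR adjusted p = 0.0442). At day 21 it had 22.9, 19.3 and 25.2 CPM in TAC hearts, against 14.4, 18.9 and 15.2 CPM in sham hearts, apart by a narrow margin (0.48 ± 0.28, edgeR adjusted p = 0.393). At day 4 it had 22, 21.8 and 20.6 CPM in TAC hearts, against 14.3, 33.5 and 16.1 CPM in sham hearts. The TAC libraries of day 4 were close to one another, whereas sham replicate 2 stood above them all. At day 2 the groups overlapped, at 10.3, 11.3 and 16.3 CPM in TAC hearts and 11.7, 15.1 and 11.7 CPM in sham hearts.

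The other beta chain gene, H2-Ab1, had 40.3, 17.5 and 24.6 CPM in TAC hearts at day 7, against 15.6, 20.1 and 17.6 CPM in sham hearts. The groups overlapped through TAC replicate 2, and the estimate of 0.63 ± 0.25 did not pass (edgeR adjusted p = 0.0742). Leaving out 1 library of that day moved it between 0.25, without TAC replicate 1, and 0.87, without TAC replicate 2. At day 21 it had 27.0, 24.2 and 29.7 CPM in TAC hearts, against 13.6, 19.5 and 17.6 CPM in sham hearts. This was the widest class II separation at that day, with 0.68 ± 0.26 and an edgeR p of 0.0150 before adjustment that did not pass after it (edgeR adjusted p = 0.174). At day 4 H2-Ab1 had 27.2, 26.9 and 28.1 CPM in TAC hearts and 21.1, 34.9 and 18.7 CPM in sham hearts. At day 2 it had 12.4, 16.3 and 22.5 CPM in TAC hearts and 14.1, 17.8 and 14.8 CPM in sham hearts. Both early days overlapped.

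Cd74, the invariant chain gene, had 168, 74.9 and 96.5 CPM in TAC hearts at day 7, against 74.8, 97.6 and 74.4 CPM in sham hearts. Only TAC replicate 1 was above the sham range, and the estimate of 0.46 ± 0.24 did not pass (edgeR adjusted p = 0.169). It was at 0.06 without TAC replicate 1 and at 0.69 without TAC replicate 2. At day 21 it had 104, 94.1 and 136 CPM in TAC hearts, against 73.5, 87.1 and 85.0 CPM in sham hearts, apart, with 0.44 ± 0.24. At day 4 the TAC hearts had 123, 117 and 117 CPM and the sham hearts 85.9, 172 and 95.6 CPM. At day 2 the TAC hearts had 80.4, 69.9 and 94.8 CPM and the sham hearts 82.6, 87.4 and 75.6 CPM. The groups overlapped at both early days, with estimates of -0.00 ± 0.24 at day 2 and 0.01 ± 0.24 at day 4.

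Ciita, the class II transactivator gene, had the largest point estimates of the 10 at days 2, 4 and 7 and the widest errors at each day. At day 4 it had 5.63, 4.80 and 4.60 CPM in TAC hearts, against 2.73, 4.31 and 2.89 CPM in sham hearts. It was the 1 gene of the 10 separated upwards at that day, where 21.5% of all tested genes were, with 0.59 ± 0.38 (edgeR adjusted p = 0.259). At day 7 it had 5.68, 2.00 and 2.79 CPM in TAC hearts, against 1.82, 1.99 and 1.33 CPM in sham hearts. The groups were barely apart, and 1.04 ± 0.41 did not pass (edgeR adjusted p = 0.0714). It was at 0.49 without TAC replicate 1 and at 1.31 without TAC replicate 2. At day 2 TAC replicate 3 stood alone, with 1.53, 1.91 and 5.39 CPM in TAC hearts and 1.71, 1.33 and 2.29 CPM in sham hearts. At day 21 the groups overlapped, at 2.32, 2.44 and 1.99 CPM in TAC hearts and 1.53, 2.26 and 1.91 CPM in sham hearts.

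**Figure D2:**
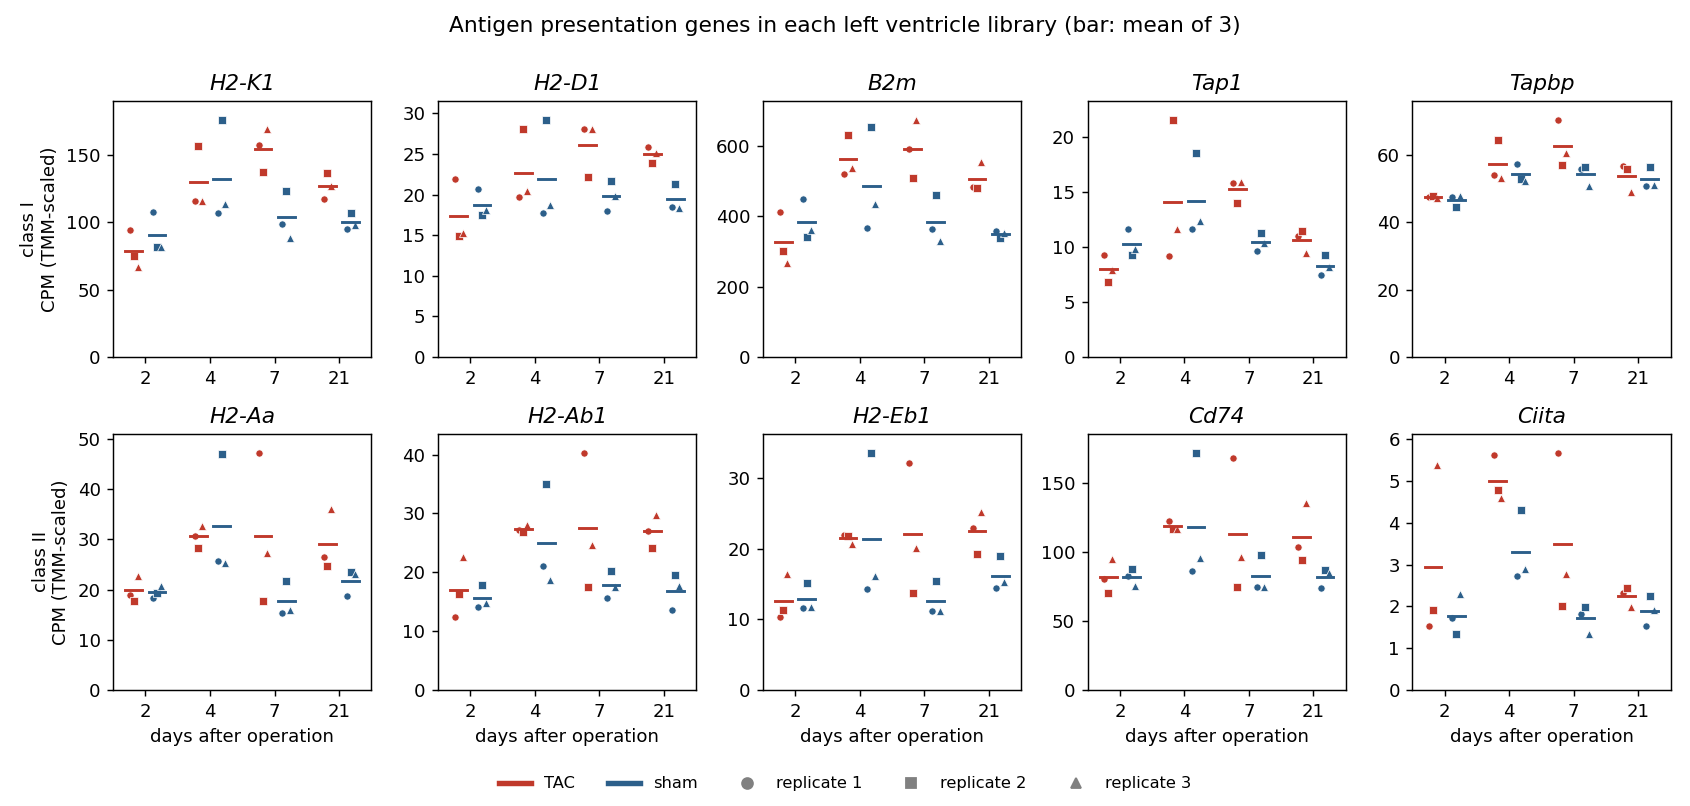
Level of each gene in TMM-scaled CPM (vertical axes, from 0) in every library, by days after operation (horizontal axes), TAC in red left of sham in blue; symbols are replicates 1 to 3 and bars are means of 3. Class I genes are in the upper row and class II genes in the lower; at day 7 the TAC points of the class II genes spread widely, with replicate 1 (circle) highest and replicate 2 (square) lowest.

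Complete separation of the groups was more frequent at day 21 than the calls show. At day 7, 6 of 10 genes had all TAC libraries above all sham libraries (the 5 of class I and Ciita), against 20.5% of all tested genes. At day 21, 8 of 10 did (H2-K1, H2-D1, B2m, Tap1, H2-Aa, H2-Ab1, H2-Eb1 and Cd74), against 11.9% of all tested genes. Tapbp and Ciita were the exceptions at day 21. None of the 8 passed the test there, and the largest fold change among them was that of H2-Ab1, 0.68 on the log2 scale.

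The number of calls at day 7 changed with the libraries included, among all tested genes as well. Without TAC replicate 1 of that day, 0 of 10 genes were called, and the calls over all genes fell to 1270, against 3201 with every library. H2-Aa was then at 0.36 and H2-Eb1 at 0.43 on the log2 scale, while B2m was at 0.62 and H2-K1 at 0.57. Without TAC replicate 2, 9 of the 10 were called, all but Tap1, and 4132 of all genes. Without TAC replicate 3, only H2-Aa was called, with B2m at 0.52, H2-K1 at 0.51 and H2-Eb1 at 0.88, and 1884 of all genes. Without sham replicate 1 none of the 10 was called, with estimates of 0.58 for B2m, 0.55 for H2-K1, 0.72 for H2-Aa and 0.73 for H2-Eb1, and 2027 of all genes. Without sham replicate 3 none was called either, with 0.52, 0.48, 0.75 and 0.73 in the same order of genes, and 1569 of all genes. Without sham replicate 2 there were 4 calls, and 2093 of all genes. For B2m and H2-K1 the call was lost while the estimate stayed at 0.48 or above. TAC replicate 1 was also the library with 60.6 CPM of Myl7, and without the 4 libraries over 30 CPM 0 of 10 were called at day 7.

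That library stood apart in its cell type markers as well. The summed level of 18 macrophage and monocyte markers at day 7 was 682, 446 and 579.8 CPM in TAC hearts, against 367, 372 and 363 CPM in sham hearts. The sum of 10 fibroblast markers was 8195, 2268 and 4180.1 CPM in TAC hearts, against 2227, 2555 and 2132 CPM in sham hearts. The cardiomyocyte sum was 127409, 187763 and 157434 CPM in TAC hearts, against 193570, 192923 and 197971 CPM in sham hearts. In these 3 lists TAC replicate 1 was farthest from sham and replicate 2 nearest. The sum of 10 endothelial markers had another order at day 7, with 1275, 1446 and 1537 CPM in TAC hearts, against 1160 and 1210.3 CPM as the lowest and highest sham hearts. There TAC replicate 1 was the nearest to sham, and all TAC libraries were above all sham libraries. The endothelial sum was 1011 to 1085 CPM in TAC hearts and 1270.3 to 1351 CPM in sham hearts at day 2, and 1063 to 1205 CPM in TAC hearts and 1222 to 1327 CPM in sham hearts at day 4, below sham at both. At day 21 it was 1298 to 1484 CPM in TAC hearts and 1205 to 1296 CPM in sham hearts, again apart. Of the 10 endothelial genes, 3 fell at day 2 (Kdr, Tek and Tie1), 3 fell at day 4 (Egfl7, Tek and Tie1), and at day 7 Cdh5, Esam and Pecam1 rose and Vwf fell. Of all tested genes, 4.58%, 24.6% and 23.2% passed at days 2, 4 and 7 in either direction. Between TAC replicates 1 and 2, class II levels differed 2.25-fold (Cd74) to 2.83-fold (Ciita), Ctss 3.17-fold and Ptprc 2.60-fold, whereas class I levels differed 1.13-fold (Tap1) to 1.27-fold (H2-D1). The part of these cell types in the day 7 result was not tested.

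In some libraries class I and class II departed from their group differently, and in others together. At day 4, TAC replicate 2 had 2.07 times the mean Tap1 of replicates 1 and 3, and 1.35 times the mean H2-K1, while its class II ratios lay between 0.895 (H2-Aa) and 1.02 (H2-Eb1). Sham replicate 2 of day 4 was high in both classes, with ratios to the mean of replicates 1 and 3 of 1.55 (Tap1) to 1.63 (B2m) for 4 class I genes and 1.53 (Ciita) to 2.20 (H2-Eb1) for class II. Tapbp, at 0.963, was the exception. Genes of macrophages and other leukocytes went both ways in that library. Csf1r, a macrophage receptor gene, was at 0.947 and Cd86 at 0.900. Lgmn was at 1.06, Irf8 at 1.19, Ifi30 at 1.23, Ptprc at 1.27 and Ctss at 1.38. At day 2, TAC replicate 3 was the highest library in all 5 class II genes and the lowest of its group in H2-K1 and B2m.

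These shifts show in the mean log2 CPM of each class. Class II minus class I was -1.51 ± 0.56 in TAC hearts and -1.80 ± 0.21 in sham hearts at day 2 (mean ± SD, n = 3 each, here and below). It was -1.36 ± 0.33 in TAC hearts and -1.49 ± 0.20 in sham hearts at day 4. At day 7 it was -1.74 ± 0.55 in TAC hearts and -1.91 ± 0.08 in sham hearts, and at day 21 it was -1.53 ± 0.18 in TAC hearts and -1.65 ± 0.13 in sham hearts. The mean was higher with TAC at each day by less than the SD of the TAC libraries, and no test was made of a score over chosen genes. The class I mean at day 7 was 6.22 ± 0.15 in TAC hearts and 5.75 ± 0.15 in sham hearts. The class II mean was 4.48 ± 0.65 in TAC hearts and 3.84 ± 0.22 in sham hearts.

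**Figure D3:**
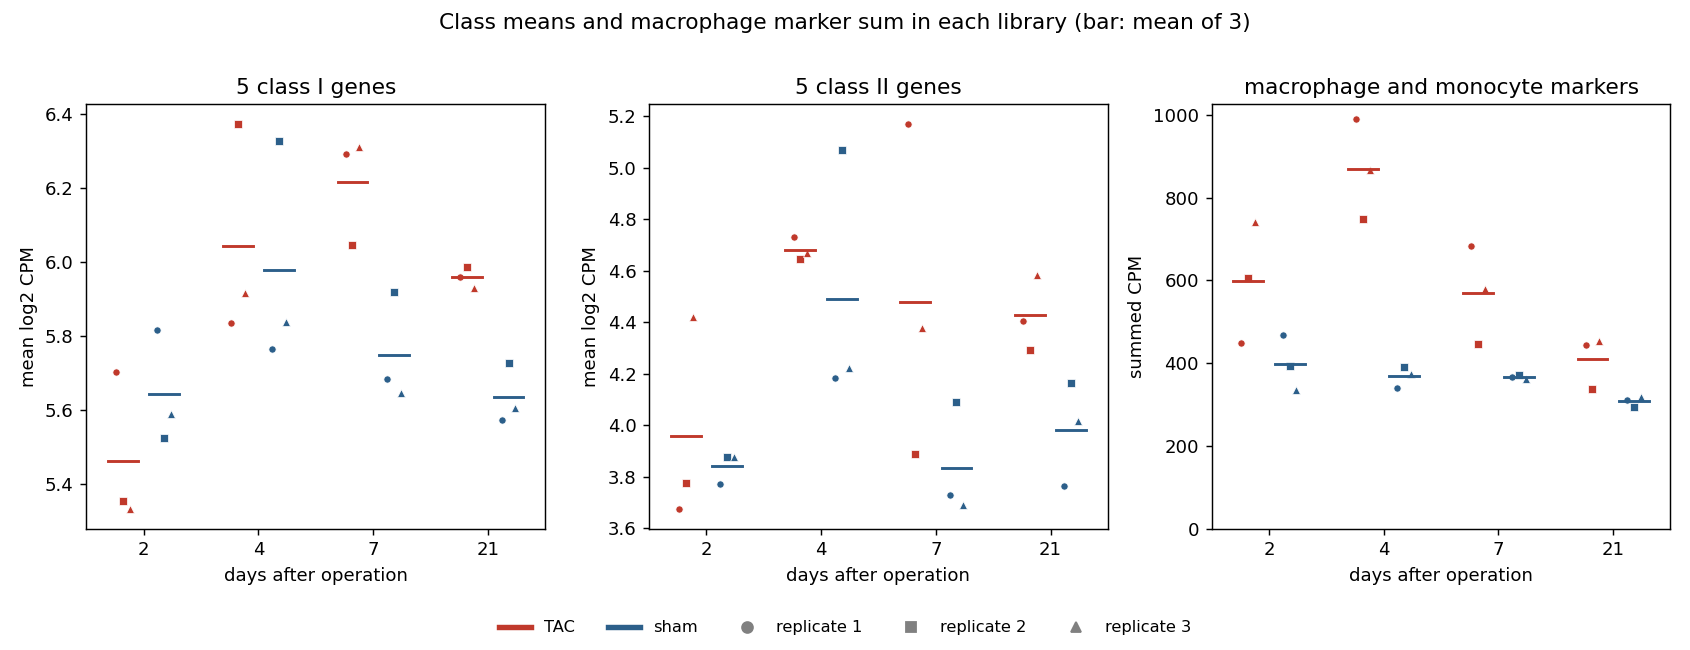
Mean log2 CPM of the 5 class I genes (left) and the 5 class II genes (middle), and the summed CPM of 18 macrophage and monocyte markers (right), in every library by days after operation, TAC in red left of sham in blue; symbols are replicates and bars are means of 3. At day 7 the class I points of TAC and sham do not overlap, the class II points spread between 3.89 and 5.17 in TAC hearts, and the marker sum is above sham in every TAC library at days 4, 7 and 21.

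After subtracting group means, genes of a class went together more than genes of different classes. The median Pearson correlation of log2 CPM over the 24 libraries was 0.697 among the 10 pairs within class I and 0.882 among the 10 pairs within class II, but 0.317 over the 25 pairs between the classes. The lowest pair within class I was at 0.0939 and the lowest within class II at 0.635. These values are descriptions; the points share library and depth.

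Over the 4 days together, the average effect of TAC passed for 3 of 10 genes, where 45.7% of all tested genes passed. B2m rose by 0.28 ± 0.09, H2-Ab1 by 0.40 ± 0.13 and Ciita by 0.66 ± 0.20 on the log2 scale (edgeR adjusted p = 0.0147, 0.0144 and 0.0114 in that order). All 10 estimates were above 0, with a median of 0.17 for class I and 0.32 for class II, and of -0.00 over all tested genes. These 3 were called in each of the 24 fits that left out 1 library. Without sham replicate 2 of day 4 there were 8 calls, and without TAC replicate 2 of day 7 there were 6. Over the 24 fits, 5717 to 6803 of all tested genes were called in the average. Leaving out the 4 libraries over 30 CPM of Myl7 keeps only replicate 1 of sham at day 2, so no count is given for that fit.

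Whether the effect differed between days was tested directly, and none of the 10 genes passed. In the test over all 4 days, 0 of 10 passed, against 0.369% of all tested genes, with 3 genes at an unadjusted p under 0.05 (H2-K1, B2m and Tap1). The shares of all tested genes in this paragraph are at an adjusted p under 0.05. No share at an unadjusted p is given, so the unadjusted counts have no background here. For the effect at day 7 minus that at day 2, 0 of 10 passed, against 0.774% of all tested genes, with 4 unadjusted. The estimates of that difference ran between 0.18 (Tapbp) and 0.91 (Tap1) for class I, with a median of 0.78, and between 0.28 (Ciita) and 0.83 (H2-Eb1) for class II, with a median of 0.49, so the classes overlapped. For day 21 minus day 7, 0 of 10 passed, against 0.0651% of all tested genes, with 0 unadjusted. DESeq2 and limma voom called 0 in each of these tests. Among the sham hearts alone, the 4 days did not differ for any of the 10 in edgeR (0.68% of all tested genes did; 4 of 10 were under an unadjusted p of 0.05), and DESeq2 and limma voom called 0.

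Genes with the most similar profiles were sought among 9299 tested genes of sufficient abundance. For this ranking a class mean was taken over log2 CPM values, each gene first scaled to the same mean and spread. With the class I mean, the 6 highest Pearson correlations over the 24 libraries were those of Nlrc5 (0.887), Irgm1 (0.876), Psmb8 (0.870), H2-Q4 (0.870), Cmpk2 (0.838) and Uba7 (0.833). With the class II mean they were those of 2410006H16Rik (0.768), Plekho2 (0.764), P2rx4 (0.764), Fbn2 (0.763), Cx3cr1 (0.762) and Rasa4 (0.761). The class II values lie close together, so their order is not distinct. After subtracting group means, the 6 genes named for class I correlated with the unscaled class I mean at 0.682 (Cmpk2) to 0.847 (Nlrc5). Those named for class II correlated with the unscaled class II mean at 0.616 (Plekho2) to 0.770 (Rasa4), with Cx3cr1 at 0.736. Of the H2-Q4 50-base words, 24.3% occur in another gene.

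Of 20 further class I chain genes, 8 were tested, and none passed at any day. Their median log2 fold change was -0.25, 0.02, 0.39 and 0.33 at days 2, 4, 7 and 21. H2-Q5 was at -1.13 ± 0.33 at day 2 (edgeR adjusted p = 0.0542) and at -0.55, 0.64 and 0.61 at days 4, 7 and 21. Its groups did not overlap at day 2, downwards, or at days 7 and 21, upwards. Of all tested genes, 11.2%, 20.5% and 11.9% were apart in these directions at days 2, 7 and 21. At day 7, H2-Q4 was at 0.46 ± 0.20, H2-T10 at 0.64 ± 0.33 and H2-T23 at 0.32 ± 0.17. Of 12 genes for peptide supply and loading, 1 rose at day 2 (Calr, calreticulin) and 2 at day 4 (Calr and Pdia3, a disulphide isomerase of the loading complex), where 4.58% and 24.6% of all tested genes passed. None passed at days 7 and 21. The chaperone gene Canx, calnexin, was at -0.00 at day 4 and at -0.20 at day 7.

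Calr had 217, 185 and 229 CPM in TAC hearts at day 4, against 157, 154 and 134 CPM in sham hearts. Its log2 fold change was 0.50 ± 0.11 (edgeR adjusted p = 0.00334), and that of Pdia3 was 0.74 ± 0.15 (edgeR adjusted p = 0.00169). Both day 4 calls held without any 1 library. The call of Calr at day 2 (0.48 ± 0.11) did not hold without TAC replicate 3 (0.37) or any 1 of the 3 sham libraries (0.45 to 0.50). Tap2, the partner of Tap1, was at -0.34, -0.06, -0.11 and 0.09 over the 4 days, and Psmb9 at -0.07, -0.33, 0.29 and 0.22. Psmb8, another immunoproteasome subunit gene, was at 0.13, 0.21, 0.55 and 0.43, and Nlrc5 at -0.08, 0.31, 0.45 and 0.33. None of these 4 passed at a day. Averaged over days, 5 of the 12 passed, Psmb8, Psmb10, Calr and Pdia3 upwards and the proteasome activator gene Psme1 downwards, a share near the 45.7% of all tested genes.

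Of 12 genes that process antigen for class II or give its co-signal, 9 were tested. At days 2, 4, 7 and 21, 3, 6, 3 and 0 of the 9 rose and none fell, where 4.58%, 24.6%, 23.2% and 1.09% of all tested genes passed. Ctss, the protease that trims the invariant chain, had 78.8, 49.5 and 67.4 CPM in TAC hearts at day 4, against 13.1, 19.4 and 15.0 CPM in sham hearts. It rose by 2.04 ± 0.35 (edgeR adjusted p = 0.000665), and every TAC library lay above every sham library. The thiol reductase gene Ifi30 (1.70 ± 0.38) and the endosomal protease gene Lgmn (0.78 ± 0.12) rose too at day 4, and these 3 calls held without any 1 library. The co-stimulatory genes Cd80 (2.11 ± 0.61) and Cd86 (0.88 ± 0.26) and March1 (1.18 ± 0.34), a ubiquitin ligase that removes class II from the surface, also passed. The call of Cd80 was lost without sham replicate 2 or 3 (1.59 at the lowest), that of Cd86 without these or TAC replicate 3 (0.74), and that of March1 without sham replicate 1 (0.91) or TAC replicate 1 or 3.

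At day 7, Ctss was at 45.0, 14.2 and 28.2 CPM in TAC hearts, against 11.4, 12.5 and 11.8 CPM in sham hearts. It rose by 1.30 ± 0.36, a call lost without TAC replicate 1 (0.85) or sham replicate 1 (1.28) or 3 (1.29). March1 (1.22 ± 0.37) and Lgmn (0.39 ± 0.12) passed at day 7 too, and each was lost without TAC replicate 1 (0.93 and 0.33 in that order) or 3 or sham replicate 2 or 3. At day 2, Ctss (1.27 ± 0.35), Ifi30 (1.39 ± 0.38) and Lgmn (0.74 ± 0.12) passed. Without TAC replicate 3 none of the 3 was called, at 0.80, 0.82 and 0.58, and for Ctss and Ifi30 only leaving out TAC replicate 1 kept the call. H2-DMa and H2-DMb1, which encode the catalyst of peptide exchange on class II, were at 0.28, 0.40, 0.59 and 0.50 and at 0.80, 0.48, 0.78 and 0.09 over the 4 days, and neither passed at a day.

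**Figure D4:**
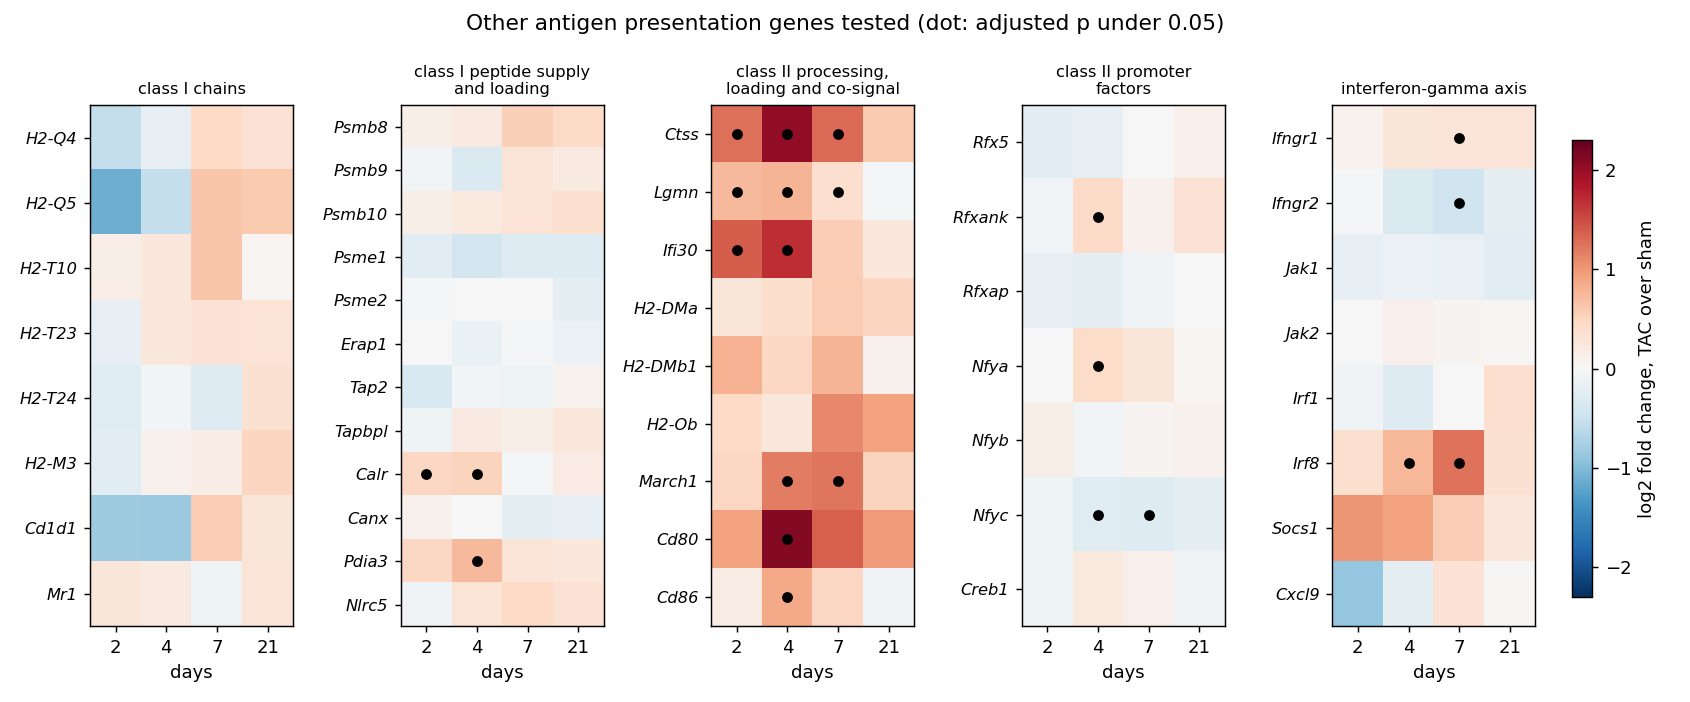
Log2 fold change of TAC over sham (colour scale) for tested genes of 5 lists around the 10 genes, by days after operation (columns); black dots mark an adjusted p under 0.05. The class II processing list holds most of the dots, including Ctss, Lgmn and Ifi30 at days 2 and 4, and the class I chain list holds none.

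Of 7 genes for factors that act on these promoters, 0, 3, 1 and 0 passed at days 2, 4, 7 and 21, where 4.58%, 24.6%, 23.2% and 1.09% of all tested genes did. Rfxank (0.45 ± 0.12) and Nfya (0.43 ± 0.15) rose and Nfyc (-0.28 ± 0.10) fell at day 4, and Nfyc (-0.29 ± 0.10) fell at day 7. Rfxank was lost without TAC replicate 3 (0.36). Nfya and Nfyc at day 4 were each lost without TAC replicate 1 or 3 or without sham replicate 1, Nfya also without sham replicate 2 and Nfyc also without sham replicate 3; their estimates then lay between 0.32 and 0.42 for Nfya and between -0.27 and -0.22 for Nfyc. Nfyc at day 7 held only without TAC replicate 2, and was at -0.17 without TAC replicate 1.

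Interferon-gamma is the classical inducer of both classes. Ifng itself had between 0 and 3 reads in each of the 24 libraries and was not tested. Of the 9 tested genes of its axis, 1 passed at day 4 and 2 rose and 1 fell at day 7, where 24.6% and 23.2% of all tested genes passed. Irf8, a transcription factor gene of myeloid cells, rose at day 4 (0.76 ± 0.18, edgeR adjusted p = 0.00459) and at day 7 (1.26 ± 0.19, edgeR adjusted p = 0.000199). Both of these calls held without any 1 library. At day 7 Irf8 had 12.3, 8.10 and 9.43 CPM in TAC hearts, against 4.03, 4.50 and 3.99 CPM in sham hearts. At the same day Ifngr1 (0.30 ± 0.11) rose and Ifngr2 (-0.46 ± 0.14) fell, and both calls were lost without any 1 library other than TAC replicate 2 (0.18 and -0.36 in that order without TAC replicate 1). Irf1, an interferon-induced transcription factor gene, was at -0.08, -0.29, 0.01 and 0.38 over the 4 days and did not pass at a day.

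Of 18 tested macrophage and monocyte markers, 6, 14, 12 and 0 rose at days 2, 4, 7 and 21, with none falling, where 4.58%, 24.6%, 23.2% and 1.09% of all tested genes passed. Their summed level peaked at day 4, at 990, 748 and 866 CPM in TAC hearts, against 341, 389 and 374 CPM in sham hearts. At that day no class II gene was called, and their estimates depended on single libraries. Leaving out 1 library moved H2-Aa between -0.25 and 0.27 and H2-Ab1 between -0.034 and 0.47. It moved H2-Eb1 between -0.22 and 0.50, Cd74 between -0.18 and 0.39 and Ciita between 0.47 and 0.84. Ptprc, the pan-leukocyte gene, had 35.8, 25.0 and 33.3 CPM in TAC hearts at day 4, against 12.3, 14.8 and 10.9 CPM in sham hearts. It rose by 1.31 ± 0.36 at day 4 and by 1.13 ± 0.37 at day 7; the day 4 call was lost without sham replicate 3 (1.21), and the day 7 call without TAC replicate 1 (0.74) or 3 or sham replicate 1 or 3. Of 7 tested dendritic cell markers only Itgax rose at a day, which was day 4. Their median log2 fold change was 0.79, 0.58, 1.02 and 0.33 at days 2, 4, 7 and 21. In the average over days 4 of the 7 rose (Cd209a, Clec9a, Flt3 and Itgax), where 45.7% of all tested genes passed. The summed level of the 10 dendritic cell markers at day 7 was between 16.8 and 28.1 CPM in TAC hearts and between 14.7 and 17.8 CPM in sham hearts. None of 6 tested B cell markers passed at a day, and 1 of them (Cd22) rose in the average over days. Their median log2 fold change was -0.06, -0.11, 0.99 and 0.69 at days 2, 4, 7 and 21. The summed level over 8 B cell genes at day 7 was between 57.4 and 83.4 CPM in TAC hearts and between 53.7 and 61.9 CPM in sham hearts. The part of these cells in the class I and class II levels was not tested.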

How the data were processed

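Left ventricles of mice after TAC or a sham operation yielded total RNA, and libraries made with the NuGEN Ovation kit were run on a NextSeq500, per the labels' protocols. The authors deposited a table of read counts per gene and a table of RPKM values, which scale reads by gene length and library total. The submitters' processing notes name TopHat, DESeq and hg19; no mouse build, annotation, counting rule or use of strand was given in the sources used here. Both tables cover the 24 libraries, and 0 other columns of values were found.

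Groups came from the sample labels. The counts were tested with edgeR 4.0.16 in R 4.3.3: genes passing edgeR's filter on low counts (13816 of 24015), TMM scaling, 1 mean for each of the 8 groups, the quasi-likelihood test with 16 residual degrees of freedom, and Benjamini-Hochberg adjustment over all tested genes at 0.05. Standard errors were taken as the absolute log2 fold change over the root of the F statistic. Levels per length are the deposited RPKM values. Groups do not overlap where all libraries of one lie above all of the other. The method was tested on simulated data.

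Alternatives were DESeq2 1.42.0 and limma 3.58.1 (voom on counts, and log2 of RPKM plus 0.1 or 1), DESeq2-type size factors, other filters (none, or at least 1 CPM in 3 libraries), the 6 libraries of a day alone, the replicate number as a block, Myl7 as a covariate, leaving out the 4 libraries over 30 CPM of Myl7, and leaving out each library. The members and gene lists were chosen with earlier results of these data known. All 10 members are named, with 10 related genes (Tap2, Psmb8, Psmb9, Nlrc5, H2-DMa, H2-DMb1, Ctss, Ifng, Irf1 and Ptprc; 1 more is not reported here), up to 3 genes of each other list with the smallest p at each day, and the 6 genes most like each class mean (average log2 CPM of at least 3). Genes named beyond these, where few of a list were called or for a ratio, were chosen after their values were seen. Promoters were matched to RefSeq by symbol, and shared 50-base words were counted in GENCODE M21 transcripts.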

Additional observations from a re-analysis of the deposited data

How the results depend on the processing

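At day 7, 4 of the 10 genes were called; limma voom called 2 (B2m and H2-K1), the fit without the 4 libraries over 30 CPM of Myl7 called 0, and leaving out single libraries gave 0 to 9, while the calls over all genes ran between 1270 and 4132. In the average over days, 3 were called, against 5 with Myl7 as a covariate and 3 to 8 with single libraries left out. The calls over all genes in these fits were 6319, 6797 and 5717 to 6803 in that order. Leaving out the 4 libraries over 30 CPM of Myl7 keeps only replicate 1 of sham at day 2. Counts of that fit are therefore not given for comparisons that use sham hearts of day 2. At day 21, 0 were called, but 1 (H2-Ab1) with the covariate. The replicate numbers did not pair the libraries, since same-numbered libraries correlated at -0.151 to 0.141 and 6 of 24 correlated best with their own number. With the replicate block, 4 genes were called at day 7 and 3 in the average, with 3223 and 6282 of all genes. The cause of these shifts was not tested.

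Some small estimates changed sign. At day 2, H2-Eb1 was at 0.12 without the Myl7 libraries and 0.072 with the covariate, and Cd74 at 0.000255 with the libraries of that day alone and 0.052 with the covariate. At day 4, H2-K1 was at 0.015 and 0.015 on the log2 RPKM scales (0.1 and 1 added) and 0.016 with the covariate, which also gave 0.045 for Tap1, -0.11 for H2-Eb1 and -0.073 for Cd74. With single libraries left out, day 2 ranges were -0.0019 to 0.045 (Tapbp), -0.084 to 0.11 (H2-Aa), -0.11 to 0.31 (H2-Ab1), -0.25 to 0.12 (H2-Eb1), -0.13 to 0.098 (Cd74) and -0.031 to 1.04 (Ciita). Those of day 4 were -0.19 to 0.24 (H2-K1), -0.13 to 0.32 (H2-D1), -0.44 to 0.24 (Tap1), -0.015 to 0.13 (Tapbp), -0.25 to 0.27 (H2-Aa), -0.034 to 0.47 (H2-Ab1), -0.22 to 0.50 (H2-Eb1) and -0.18 to 0.39 (Cd74), and that of day 21 was -0.0097 to 0.092 (Tapbp).

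Counts over all genes moved too. Day 2 had 633 calls, but 292 with voom, 0 with the libraries of the day alone, 324 and 207 on the RPKM scales and 1552 with the covariate. Day 7 had 3201, but 892 without the Myl7 libraries. Day 21 had 151, but 461 with DESeq2, 87 with voom, 30 with the libraries of the day alone, 3 without the Myl7 libraries and 1153 with the covariate. The effect over the 4 days had 51, but 299 with DESeq2. The effect at day 7 minus day 2 had 107, but 270 with DESeq2. The effect at day 21 minus day 7 had 9, but 74 with DESeq2, 3 with voom, 28 on log2 RPKM with 1 added, 1 without the Myl7 libraries and 3 with the covariate. The sham days had 94, but 241 with DESeq2. Ciita rested on 15 to 96 reads a library, the fewest of the 10 genes.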
